A study of Mus musculus with 10 samples.

Results

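The NRF2 antioxidant response was followed in hepatic mRNA through 10 genes: Nfe2l2, which encodes NRF2, its inhibitor gene Keap1, and 8 target genes (Nqo1, Gclc, Gclm, Hmox1, Txnrd1, Srxn1, Gsr and G6pdx). The 10 were taken by gene symbol from a count table of 24421 genes, and all 10 passed the filter on low counts that left 11092 genes for testing. Livers came from 10 wild-type male C57BL/6 mice (C57BL/6J in the study's methods), 21 weeks old and fed ad libitum, with 1 library per mouse. The Chow group (n = 5) ate standard chow, and the TM5614 group (n = 5) ate chow with TM5614 mixed in, at 20 mg/kg/day over 10 days. This compound inhibits plasminogen activator inhibitor 1 (PAI-1), and the study compared the drug-fed mice with age-matched littermates on chow. The question here was whether the oxidant-defence genes of the liver differed between the groups.

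NRF2 is a transcription factor of the cap'n'collar family that is held at a low level in unstressed cells. KEAP1 binds it and hands it to a CUL3 ubiquitin ligase for degradation, and oxidants or electrophiles that modify cysteines of KEAP1 let newly made NRF2 escape. NRF2 then pairs with a small MAF protein on antioxidant response elements and raises genes for glutathione synthesis, thioredoxin reduction, NADPH supply, haem breakdown and detoxification, all prominent functions of hepatocytes.

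Of the 10 genes, 1 passed the threshold. Srxn1, which encodes sulfiredoxin, the enzyme that repairs over-oxidised peroxiredoxins, rose in TM5614 by 1.39-fold. The other 9 did not pass, and their estimates ran from a log2 fold change of -0.29 for Hmox1 to 0.22 for Txnrd1 and Gsr. The share called was 10.0% of the 10 genes, against 4.5% of all genes tested (1.73% higher and 2.77% lower). The 10 genes were chosen with earlier results of these data known, so these shares are not a test of enrichment. Groups that did not overlap were seen for 1 of the 10 genes, and for 8.93% of all genes tested. Estimates were higher in TM5614 for 4 genes and lower for 6, with a median log2 fold change of -0.07, against 0.01 over all genes tested. Srxn1 was still the 1 gene called without Chow replicate 2, a library that stood apart, and the median was then -0.12. Calls are adjusted p-values under 0.05 from edgeR's quasi-likelihood test over all 11092 genes, and CPM are counts scaled to a common library size.

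The antioxidant response element has a core of the letters TGACNNNGC, and its matches near the start sites are shown so that the gene that rose can be set beside those that did not pass. The windows, from RefSeq on GRCm38.p6, span 250 bases before to 50 bases after an annotated start. They were found for 7 of the 10 genes (Nfe2l2, Keap1, Nqo1, Gclm, Txnrd1, Srxn1 and G6pdx). Both strands were searched. Each line gives 29 bases along the strand of the match, with the core in capitals.
Srxn1: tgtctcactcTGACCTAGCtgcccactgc
Nfe2l2: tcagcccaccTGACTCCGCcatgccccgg
Gclm: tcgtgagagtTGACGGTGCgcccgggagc
Txnrd1: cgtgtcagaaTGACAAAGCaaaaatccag
G6pdx: gcgtgtgcttTGACTGAGCtgacccgcct

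The Srxn1 match lay at chr2:152105542-152105570 (minus strand), 28 bases after the start, and the Nfe2l2 match at chr2:75704885-75704913 (minus strand), 240 bases before it. The Gclm match lay at chr3:122245413-122245441 (minus strand), 134 bases before the start. The Txnrd1 match, at chr10:82859104-82859132 (minus strand), lay 92 bases before 1 of 3 annotated starts. The G6pdx match lay at chrX:74428919-74428947 (plus strand), 57 bases before the RefSeq start at 74428880, which lies inside the GENCODE gene whose coordinates are given later. Distances are all from the RefSeq starts. The windows of Keap1 and Nqo1 held no match. Bases outside the windows were not searched, so matches farther from a start would have been missed for any of the genes. A match is a run of letters and not a bound site: 12.4% of 32851 windows of this length held at least 1. Of the 5 matches, 0 overlapped the AP-1 motif (TGACTCA or TGAGTCA). The gene that rose and 4 that did not pass the threshold thus shared the core letters.

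Srxn1 (chromosome 2, 152105516 to 152111376, plus strand) overlapped no other annotated gene. It had 44.6, 50.0, 43.0, 49.9 and 45.9 CPM in Chow replicates 1 to 5, and 62.2, 67.1, 66.4, 66.7 and 61.8 CPM in TM5614 replicates 1 to 5. Every TM5614 value exceeded every Chow value, and neither group held a library far from its mates. The means were 46.7 ± 3.14 CPM in Chow and 64.8 ± 2.62 CPM in TM5614 (SD, n = 5 each), from 315 to 602 counts per library. The coefficient of variation was 6.73% in Chow and 4.04% in TM5614, the smallest of the 10 genes in both groups. The log2 fold change was 0.47, with SE 0.09 and an edgeR adjusted p of 0.0124, which is 1.39-fold with a 95% interval of 1.21 to 1.60. By p it ranked 200 among the genes tested.

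**Figure D1:**
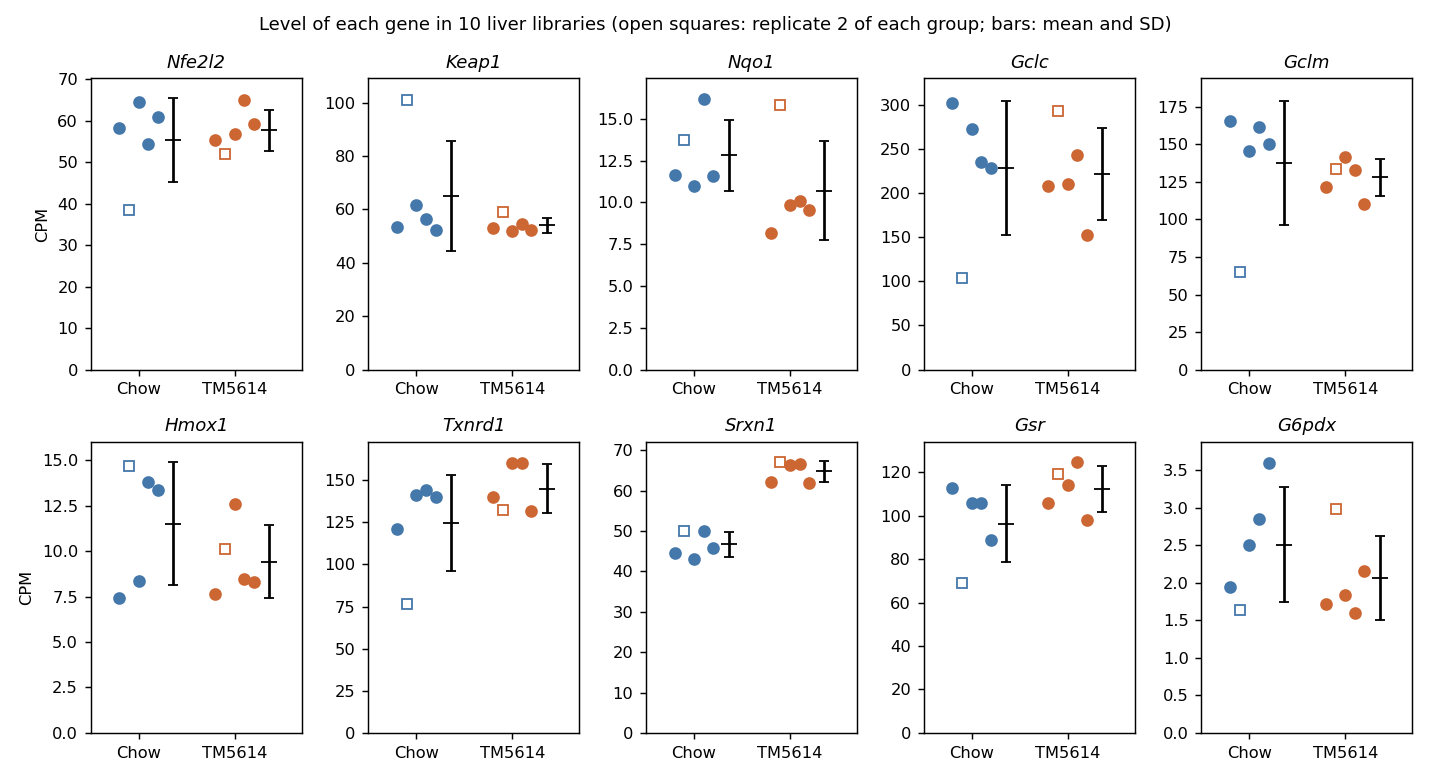
CPM of each of the 10 genes in every library, Chow and TM5614 side by side, with the mean and SD of each group of 5. The Srxn1 points of the groups do not overlap (43.0 to 50.0 CPM against 61.8 to 67.1 CPM), while those of the other 9 genes do.

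The genes whose values followed Srxn1 most closely over the 10 libraries were Psmd6, Mapkapk2 and Cct3. Likeness was the root mean square difference between 2 genes in log2 CPM, each taken from its own mean, and it was 0.0649, 0.0762 and 0.0779. This is a description over 10 libraries, with no test of likeness. Their log2 fold changes were 0.45, 0.42 and 0.51.

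Chow replicate 2 bears on the genes that follow. Its mean correlation across genes with the other Chow libraries was 0.927, where the other 9 libraries had 0.965 to 0.982 with their own group. A trend on GC content and transcript length described 46% of its deviations, against 0.763% to 11.5% elsewhere. In that library 6 of the 10 genes took their lowest Chow value and 3 their highest, and Nqo1 alone lay inside. On the log2 scale it differed from the mean of the other Chow libraries by -1.32 for Gclc, -1.26 for Gclm, -0.84 for Txnrd1 and 0.85 for Keap1. Among the 10 transcripts Gclm had the lowest GC content, 42.1%, and Keap1 the highest, 58.0%, with a median of 49.5% over genes tested. The genes between them did not all follow the order of GC content. Nqo1, at 46.7% GC, differed by 0.12 in that library, Gclc, at 47.7%, by -1.32 and G6pdx, at 52.6%, by -0.73. TM5614 replicate 2 held skeletal muscle transcripts, with 3737 CPM summed over 10 markers against 1.15 to 62.4 CPM in its group mates and no more than 1.25 CPM in Chow. The part of either feature in the values below was not tested, and estimates without either library are given below where they moved by more than 1.5 times.

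**Figure D2:**
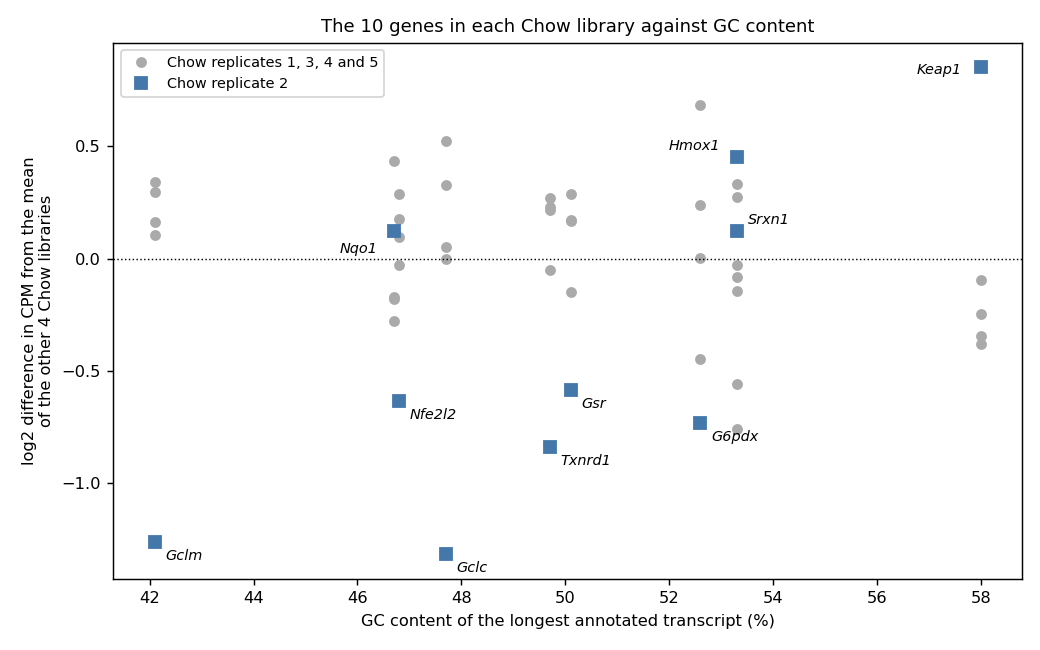
Log2 difference in CPM of each Chow library from the mean of the other 4 (vertical axis) against GC content of the longest annotated transcript (percent, horizontal axis) for the 10 genes, with squares for Chow replicate 2 and grey points for the others. The square of Keap1, at 58.0% GC, lies at 0.85 and that of Gclm, at 42.1% GC, at -1.26. The squares between do not all follow this order, with Nqo1, at 46.7% GC, at 0.12 and G6pdx, at 52.6% GC, at -0.73.

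Neither regulator passed the threshold. Nfe2l2 (chromosome 2, 75675513 to 75704641, minus strand) had 58.3, 38.4, 64.6, 54.5 and 60.9 CPM in Chow, and 55.3, 52.0, 56.9, 65.0 and 59.2 CPM in TM5614. The groups overlapped over most of their range, with Chow replicate 2 below every other library. The means were 55.4 ± 10.2 and 57.7 ± 4.86 CPM (SD, n = 5 each), and the log2 fold change was 0.06 (95% interval -0.24 to 0.36, edgeR adjusted p = 0.831). It was -0.05 without Chow replicate 2 and 0.09 without TM5614 replicate 2. A small RNA gene, Gm24996, overlaps Nfe2l2 on the same strand.

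Keap1 (chromosome 9, 21229730 to 21239361, minus strand) had 53.5, 101, 61.6, 56.6 and 52.4 CPM in Chow, and 53.0, 58.9, 52.1, 54.5 and 52.1 CPM in TM5614. Apart from Chow replicate 2 all 9 libraries lay between 52.1 and 61.6 CPM. The log2 fold change was -0.27 (95% interval -0.64 to 0.11, edgeR adjusted p = 0.405), and -0.06 without Chow replicate 2. An antisense gene, Gm16754, overlaps Keap1. Strand use in counting is not given in the sources used here, so reads of the pair may be mixed.

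Glutathione synthesis starts with glutamate-cysteine ligase, whose catalytic subunit is encoded by Gclc and whose modifier subunit is encoded by Gclm. Gclc (chromosome 9, 77754535 to 77794485, plus strand) had 302.0, 104, 273, 235 and 228 CPM in Chow, and 208, 293, 211, 243 and 152 CPM in TM5614. Both groups spread widely, with the lowest value in Chow replicate 2 and the highest in Chow replicate 1. The means were 228 ± 75.6 and 221 ± 51.9 CPM (SD, n = 5 each), with a log2 fold change of -0.04 and a 95% interval of -0.59 to 0.50 (edgeR adjusted p = 0.935). The estimate was -0.24 without Chow replicate 2, -0.17 without TM5614 replicate 2 and -0.36 without both. Of the 10 genes only G6pdx had a wider interval.

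Gclm (chromosome 3, 122245557 to 122270732, plus strand) had 165, 65.0, 146, 162 and 150 CPM in Chow, and 122, 134, 142, 133 and 110 CPM in TM5614. Chow replicate 2 was the lowest of all libraries, and the other 4 Chow libraries were above all 5 TM5614 libraries. The means over all libraries were 138 ± 41.4 and 128 ± 12.2 CPM (SD, n = 5 each), for a log2 fold change of -0.10 (95% interval -0.56 to 0.35, edgeR adjusted p = 0.804). Without Chow replicate 2 the Chow mean was 156 ± 9.34 CPM (SD, n = 4) and the log2 fold change was -0.29 (edgeR adjusted p = 0.0525), and over all 19 alternative settings the adjusted p lay between 0.0525 and 0.936. This estimate thus moved with 1 library. Gclm overlaps Gm17494 on the opposite strand and the pseudogene Gm6061.

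Gsr (chromosome 8, 33652523 to 33698163, plus strand), whose glutathione reductase returns oxidised glutathione to its reduced form with NADPH, had 113, 68.9, 106, 106 and 88.7 CPM in Chow. In TM5614 it had 106, 119, 114, 125 and 97.9 CPM. The 3 highest values were in TM5614 libraries and the 2 lowest in Chow, and the groups overlapped. The means were 96.4 ± 17.7 and 112 ± 10.7 CPM (SD, n = 5 each), for a log2 fold change of 0.22 (95% interval -0.08 to 0.52, edgeR adjusted p = 0.387). The log2 fold change was 0.12 once Chow replicate 2 was left out. A small RNA gene, Gm24727, overlaps Gsr on the same strand.

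Txnrd1 (chromosome 10, 82833951 to 82897712, plus strand) encodes cytosolic thioredoxin reductase, the selenoenzyme that keeps thioredoxin reduced. It had 121, 76.3, 141, 144 and 140 CPM in Chow, and 140.0, 132, 160.4, 160.3 and 132 CPM in TM5614. Both values above 160 CPM were in TM5614, and Chow replicates 3, 4 and 5 lay just above the other 3 TM5614 libraries. The means were 125 ± 28.5 and 145 ± 14.5 CPM (SD, n = 5 each), for a log2 fold change of 0.22 (95% interval -0.14 to 0.58, edgeR adjusted p = 0.469). It was 0.08 with Chow replicate 2 left out. Srxn1, which also acts in the thioredoxin and peroxiredoxin system, thus passed the threshold without Txnrd1 doing so. The difference between the 2 genes was not tested. Txnrd1 overlaps Eid3 on the same strand, and Gm38560 and Gm47073 on the opposite strand. Eid3 had 2 to 20 counts per library in Chow and 4 to 16 in TM5614.

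Nqo1 (chromosome 8, 107388225 to 107403206, minus strand) encodes a quinone reductase and is commonly used as a readout of NRF2 activity. It had 11.6, 13.7, 10.96, 16.2 and 11.6 CPM in Chow, and 8.19, 15.8, 9.86, 10.1 and 9.55 CPM in TM5614. Of the TM5614 libraries 4 were below all 5 Chow libraries, and TM5614 replicate 2 was above 4 of them. The means were 12.8 ± 2.14 and 10.7 ± 2.96 CPM (SD, n = 5 each), and the log2 fold change was -0.26 (95% interval -0.66 to 0.15, edgeR adjusted p = 0.457). Leaving out TM5614 replicate 2 gave -0.44. With 57 to 142 counts per library, counting error is a larger share of the spread here than in Gclc.

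Hmox1 (chromosome 8, 75093621 to 75100589, plus strand), whose haem oxygenase opens the haem ring to biliverdin, iron and carbon monoxide, had 7.40, 14.7, 8.35, 13.8 and 13.3 CPM in Chow. In TM5614 it had 7.61, 10.1, 12.6, 8.46 and 8.31 CPM. Chow replicates 2, 4 and 5 were the 3 highest, and TM5614 replicate 3 came next. The means were 11.5 ± 3.37 and 9.42 ± 2.01 CPM (SD, n = 5 each), for a log2 fold change of -0.29 (95% interval -0.77 to 0.19, edgeR adjusted p = 0.479), and -0.19 without Chow replicate 2. Kupffer cells, the liver's macrophages, are known to express Hmox1, and the summed CPM of 11 Kupffer markers was highest in the same 4 libraries: 271, 148 and 250 CPM in Chow replicates 2, 4 and 5 and 181 CPM in TM5614 replicate 3. The other libraries had 84.7 to 136 CPM. All 11 markers had lower estimates in TM5614 (median log2 fold change -0.40, and -0.25 without Chow replicate 2), and 0 of 11 passed the edgeR threshold, with 0 at an unadjusted p under 0.05. Their part in the Hmox1 values was not tested, and in bulk tissue fewer cells of a type and less RNA per cell cannot be told apart.

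G6pdx (chromosome X, 74409483 to 74429194, minus strand) encodes glucose-6-phosphate dehydrogenase, which opens the pentose phosphate pathway and makes NADPH. It was the lowest of the 10 genes, with 1.94, 1.64, 2.51, 2.85 and 3.59 CPM in Chow and 1.72, 2.99, 1.84, 1.60 and 2.16 CPM in TM5614. The groups overlapped, and the counts were only 12 to 39 per library. The log2 fold change of -0.28 had the widest 95% interval of the 10 genes, -0.87 to 0.31 (edgeR adjusted p = 0.572). It was -0.45 without TM5614 replicate 2 and -0.10 without Chow replicate 5. Ikbkg overlaps it on the opposite strand and had 419 to 681 counts per library.

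**Figure D3:**
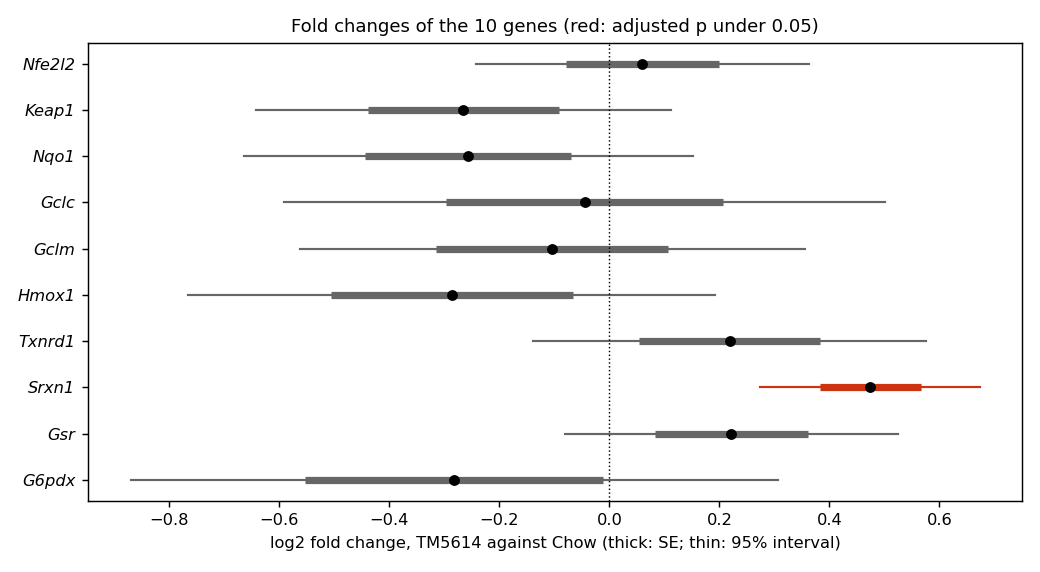
Log2 fold change of TM5614 against Chow for the 10 genes with 95% intervals from the edgeR fit. The interval of Srxn1, 0.27 to 0.67, lies above 0, and the intervals of the other 9 genes include 0.

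On a scale corrected for gene length, the authors' FPKM, Gclc and Gclm were the most abundant of the 10 transcripts in Chow, at 65.8 ± 21.9 and 65.6 ± 19.7 (SD, n = 5 each). Next came Gsr (35.6 ± 6.59) and Txnrd1 (30.6 ± 6.97), then Nfe2l2 (22.2 ± 4.09), Srxn1 (16.4 ± 1.07), Keap1 (14.4 ± 4.54), Nqo1 (8.15 ± 1.34) and Hmox1 (7.21 ± 2.09). G6pdx was lowest at 0.946 ± 0.288 FPKM. Neighbours in this order overlapped between libraries, except Keap1 with Nqo1 and Hmox1 with G6pdx. In CPM, Chow replicate 2 held the lowest Chow value of Gclc, Gclm, Gsr, Txnrd1 and Nfe2l2 and the highest of Keap1. Some of these overlaps may therefore rest on that library, and the order without it was not examined. In TM5614 Srxn1 was at 22.7 ± 0.853 FPKM and reached the level of Nfe2l2 (23.0 ± 2.10), and the values of these genes overlapped in that group.

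Further genes with roles in NRF2 control, redox defence, NADPH supply, haem breakdown and detoxification were taken as lists by function. Whether each is an NRF2 target in liver was not examined. The lists held 124 genes in all, of which 114 were tested. Of these, 0 rose and 8 fell past the threshold (7.02%, against 4.5% of all genes tested, and 2.77% for falls). Estimates were higher for 30 and lower for 84 of them, with a median log2 fold change of -0.17. The median over all genes tested was 0.01. Without Chow replicate 2, 15 of the lists' genes passed, 2 higher and 13 lower, and they included the 8. Calls over all genes rose as well in that fit, to 1031 of 11162 (405 higher and 626 lower), from 499 of 11092. The lists were chosen with earlier results of these data known, so the shares set against all genes are descriptions and not a test of enrichment.

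The falls lay in detoxification, NADPH supply and the thioredoxin system. Among 34 tested genes linked to detoxification and export, 5 fell and the median was -0.22. Gsta3, a glutathione transferase, had 1503 to 2022 CPM in Chow and 719 to 881 CPM in TM5614 (log2 fold change -1.13, SE 0.11, edgeR adjusted p = 0.00034). Cyp2a5, a P450 that oxidises coumarin, had 1049 to 1907 CPM in Chow and 312 to 599 CPM in TM5614 (log2 fold change -1.60, SE 0.21, edgeR adjusted p = 0.00153). The groups did not overlap in either gene.

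Gstm1, Gstm3 and Gstm6, transferases of the mu class, fell as well, with log2 fold changes of -0.79, -1.93 and -0.91 (edgeR adjusted p = 0.0304, 0.0122 and 0.0129). Gstm1 went from 1590 ± 436 to 919 ± 178 CPM (SD, n = 5 each), with its highest values in Chow replicate 2 and TM5614 replicate 2. The call on Gstm1 was lost without Chow replicate 1 or 3, or TM5614 replicate 1, 3, 4 or 5 (edgeR adjusted p from 0.0533 to 0.0969). The Gstm genes are close copies of each other, as Cyp2a5 is of Cyp2a4, so the split of reads among them is uncertain. Cyp2a4 had 13 to 28 counts per library in Chow and 3 to 6 in TM5614. Cyp2a5 had 10776 to 14074 in Chow and 2719 to 4618 in TM5614, so both genes had lower counts in TM5614.

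Among 15 genes of NADPH supply, 2 fell and the median was -0.19. Aldh1l1, which makes NADPH in folate metabolism, had 1268 to 1851 CPM in Chow and 702 to 1042 CPM in TM5614 (log2 fold change -0.78, SE 0.13, edgeR adjusted p = 0.00637). Tkt, the transketolase of the pentose phosphate pathway, had 97.6 to 249 CPM in Chow, the highest in replicate 2, and 60.2 to 83.5 CPM in TM5614 (log2 fold change -1.03, SE 0.22, edgeR adjusted p = 0.0209). The call on Tkt was lost without TM5614 replicate 3 or 5 (edgeR adjusted p = 0.0704 and 0.0576).

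Among 18 genes of the thioredoxin and peroxiredoxin system, 1 fell and the median was -0.23 (-0.08 without Chow replicate 2). This was Txnrd3, a relative of Txnrd1, which went from 11.9 ± 1.10 to 7.88 ± 1.49 CPM (SD, n = 5 each). The log2 fold change of -0.60 had SE 0.15 (edgeR adjusted p = 0.0443), a call lost when any single library but Chow replicate 2 or TM5614 replicate 4 was left out (edgeR adjusted p from 0.0515 to 0.135). Of the 18 genes, 5 had higher estimates and 13 lower. Txnl1 was among the higher, at 0.31 (edgeR adjusted p = 0.0662). It passed as higher with DESeq2, limma-voom or library totals, without Chow replicate 2, and without both Chow replicate 2 and TM5614 replicate 2.

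In the remaining lists 0 genes passed the edgeR threshold. Counts at an unadjusted p under 0.05, for these lists and for cell markers, are given without the share over all genes tested. As a guide, Gss, at an unadjusted edgeR p of 0.0552, ranked 2393 by p among the 11092 genes tested. Such counts are therefore not read as results about a list. The NRF2 control machinery (16 tested, median -0.02, or -0.06 without Chow replicate 2, 2 genes at an unadjusted p under 0.05) held Sqstm1, whose p62 protein competes for KEAP1. Sqstm1 had 332 to 472 CPM in Chow and 461 to 563 CPM in TM5614 (log2 fold change 0.37, edgeR adjusted p = 0.113). It passed without Chow replicate 2, at 0.42 (edgeR adjusted p = 0.0217), and the adjusted p ranged from 0.0117 to 0.241 over 19 alternatives. Maff, a small MAF partner of NRF2, had 5.94 to 18.5 CPM in Chow and 3.78 to 10.4 CPM in TM5614 (log2 fold change -0.98, edgeR adjusted p = 0.110). Maff passed without Chow replicate 1 or TM5614 replicate 4 (edgeR adjusted p = 0.0497 and 0.0492), with adjusted p-values of 0.0312 to 0.263 over its 19 alternatives.

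Genes of glutathione synthesis and use (16 tested, median -0.10, turning to 0.01 without Chow replicate 2) had 0 genes at an unadjusted p under 0.05, and Slc7a11, the cystine carrier, was at 0 in every library. Their lowest p-values belonged to Gss, the second enzyme of glutathione synthesis, and Glrx5, a mitochondrial glutaredoxin, with log2 fold changes of -0.34 and -0.52 (edgeR adjusted p = 0.256 and 0.265). Superoxide and peroxide removal (8 tested, median -0.17, or -0.10 without Chow replicate 2) likewise had 0, with Sod1, cytosolic superoxide dismutase, at -0.44 and Park7 at -0.34 (edgeR adjusted p = 0.259 and 0.358). In Gss, Glrx5, Sod1 and Park7 the highest value was in Chow replicate 2, and without it their log2 fold changes were -0.20, -0.16, -0.17 and -0.09.

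Haem breakdown and ferritin (7 tested, median -0.37, or -0.19 without Chow replicate 2) had 3 genes at an unadjusted p under 0.05. The limit given above for such counts applies here too. Blvra, biliverdin reductase, had a log2 fold change of -0.49 (edgeR adjusted p = 0.10), and Flvcr1, the haem exporter listed as Mfsd7b, had 0.92 (edgeR adjusted p = 0.0960). Flvcr1 was low, at 0.772 to 2.58 CPM in Chow and 2.74 to 4.41 CPM in TM5614.

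**Figure D4:**
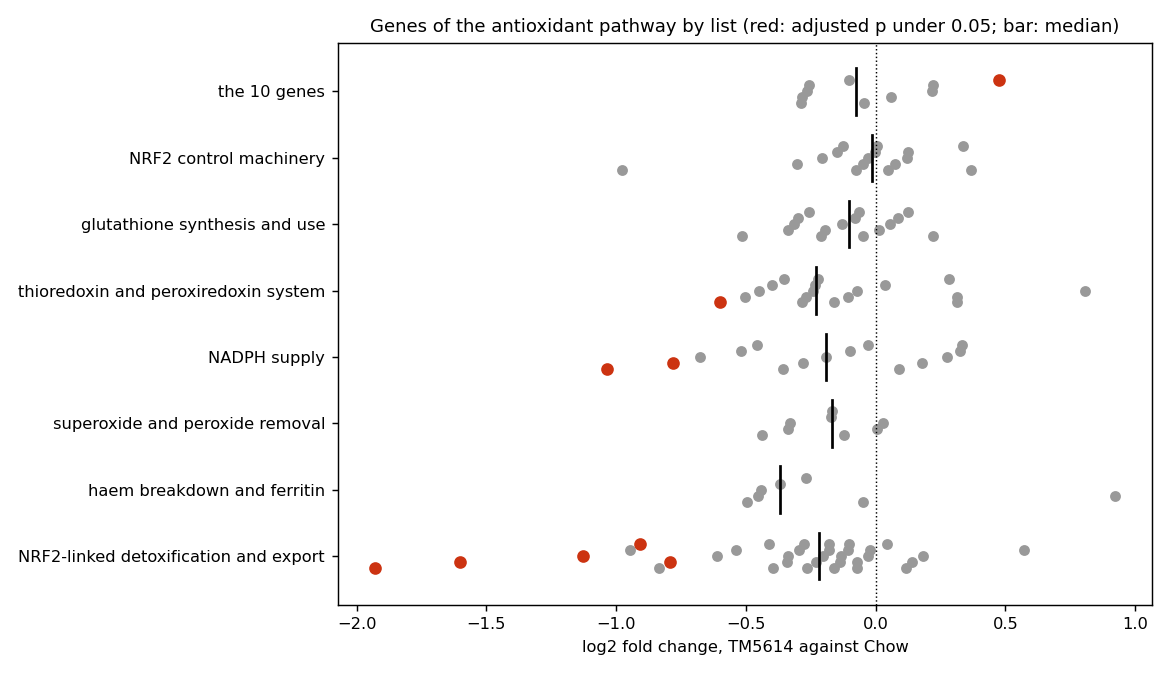
Log2 fold change of TM5614 against Chow for each tested gene of the function lists, and of the 10 genes in the top row, 1 point per gene with bars at the medians and red for those past the threshold. The 8 red points of the function lists lie below 0, and 5 of them are in the detoxification and export list.

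The hepatocyte signature of the labelled tissue was present. The 9 hepatocyte markers summed to 129600 to 139400 CPM in Chow and 110600 to 128300 CPM in TM5614, and 0 of 9 passed the edgeR threshold (2 at an unadjusted p under 0.05). The sums of the groups did not overlap. Alb, with 507970 to 971328 counts per library, had the most counts of the 9 markers. Estimates were higher in TM5614 for 4 markers and lower for 5, with a median log2 fold change of -0.15. That median was -0.06 without Chow replicate 2, where 1 marker passed as lower. The part of the sums in the values above was not tested. Endothelial, stellate and cholangiocyte markers had 0 called of 8, 8 and 3 tested, with medians of 0.07 (0.01 without Chow replicate 2), 0.21 and 0.27 and 1, 3 and 0 at an unadjusted p under 0.05. For neutrophils, lymphocytes and skeletal muscle 0 markers, and for erythroid cells 1, passed the filter. The haemoglobin genes Hba-a1, Hba-a2, Hbb-bs and Hbb-bt were at 0 in every library. Alas2, the erythroid marker that passed the filter, had 304 to 917 counts per library. The zeros were therefore not read as absence of red-cell RNA, and their cause was not tested. Depth was 6398335 counts in the shallowest library (Chow replicate 4) and 10874955 in the deepest (Chow replicate 2).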

How the data were processed

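Liver poly(A) RNA of 10 mice (1 library each) was sequenced single-end by the authors, who aligned reads to mm10 with STAR and compared groups with DESeq2 in an Illumina application; HOMER is also named in the submitters' processing notes. Tool versions, annotation and use of strand are not given in the sources used here. The authors deposited raw counts for each gene symbol, which were the input to every test, and FPKM values (counts scaled by length and library), used only to compare levels between genes. Their regularised log2 values and the table of their own DESeq2 comparison (fold changes, p-values) were not used.

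Groups and replicate numbers came from the sample titles and columns were matched by mouse number. Genes were kept with filterByExpr, scaled with TMM and tested two-sided with edgeR 4.0.16 (glmQLFit, glmQLFTest) in R 4.3.3, without a block, with Benjamini-Hochberg adjustment over 11092 genes and a threshold of 0.05. Intervals are 95% and SE is the size of the log2 fold change divided by the root of F. Log2 CPM had a prior count of 2. The p-values measure the spread between mice. Library totals were 6398335 to 10874955 counts, and precision follows each gene's count. Among 20 within-group pairs of libraries, chi-square over its degrees of freedom was at least 7.5, so no library was counted a second time.

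The members and lists were chosen with earlier results of these data known. Named were the 10 genes, each list gene past the threshold and, in lists with none, the 2 of lowest p, besides the 3 genes nearest in pattern to the member of lowest p. Txnl1 was named in addition because it passed in some alternatives. Older symbols were used for 3 genes. Coordinates came from GENCODE M21 on GRCm38. Alternatives were DESeq2 1.42.0, limma-voom (limma 3.58.1), RLE factors, library totals, 2 other filters, a replicate block, each library left out, and Chow replicate 2 with TM5614 replicate 2 left out. A spline correction for GC content and length (96.7% of tested genes had both) was chosen after seeing the data. The scripts were tested on simulated data.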

Additional observations from a re-analysis of the deposited data

Results flagged for a closer look

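The values below were picked because the gap between the highest or lowest of 5 libraries and its nearest neighbour was large against the range of the group. The rule was applied to 52 groups over 26 genes and picked 10, where about 2.6 would be picked at 1 in 20. Of the 10, 7 were in Chow replicate 2 and 2 in TM5614 replicate 2, so they are not independent. The part of those libraries in these values was not tested.

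Among the 10 NRF2 genes, 3 of 20 groups were picked. Keap1 reached 101 CPM in Chow replicate 2, with 52.4 to 61.6 CPM in the other Chow libraries. Gclm had 65.0 CPM in the same library, with 146 to 165 CPM in the others. Nqo1 reached 15.8 CPM in TM5614 replicate 2, with 8.19 to 10.1 CPM in the other TM5614 libraries.

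In Chow replicate 2, Gss was at 94.2 CPM (others 56.8 to 65.0), Glrx5 at 186 CPM (others 68.0 to 83.8), Tkt at 249 CPM (others 97.6 to 141), Sod1 at 1730 CPM (others 749 to 892) and Park7 at 341 CPM (others 157 to 188). In TM5614 replicate 2, Gstm1 had 1228 CPM (others 805 to 914). In TM5614 replicate 4, Maff had 10.4 CPM (others 3.78 to 5.45).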

How the results depend on the processing

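Srxn1 passed the threshold in all 19 alternatives, with log2 fold changes of 0.45 to 0.54 and adjusted p-values of 1.22e-06 to 0.0459, and it was the 1 of the 10 genes called under each. The estimates of Nfe2l2 and Gclc, not called, changed sign in 4 alternatives each. Over all genes, against 499 calls of 11092 tested, limma-voom with quality weights gave 1386 of 11092. Leaving out Chow replicate 2 with TM5614 replicate 2 gave 1230 of 11053. DESeq2 gave 907, but it was run without the filter on low counts and had p-values for 17019 genes. That unlike set of genes also underlies its count for the function lists below. Leaving out 1 library gave 235 (TM5614 replicate 3) to 1031 (Chow replicate 2), with 293 when Chow replicate 3 was dropped, 331 for TM5614 replicate 1 and 259 for TM5614 replicate 4. Against 8 calls in the function lists, DESeq2 gave 13, limma-voom 19, both libraries left out 19, and the GC and length correction, chosen after seeing the data, 14. Leaving out 1 library gave 5 (TM5614 replicate 3 or 5) to 15 (Chow replicate 2). With a replicate block the counts were 555 genes, 10 list genes and 1 of the 10 NRF2 genes. Same-numbered libraries had correlations of 0.0316 to 0.318, and 1 of 5 Chow libraries correlated best with its own number, so the numbers were not read as pairs. The cause of these changes was not tested.

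Aldh1l1, Cyp2a5, Gsta3, Gstm3 and Gstm6 passed in all 19 alternatives, Tkt in 17, Gstm1 in 13 and Txnrd3 in 8. Tkt was lost without TM5614 replicate 3 (adjusted p = 0.0704) or 5 (adjusted p = 0.0576), with a range of 0.000357 to 0.0704 over its alternatives. Txnrd3 was also lost with library totals (adjusted p = 0.0550), no filter (0.0782) and the replicate block (0.0803), in a range of 0.0116 to 0.135. Gstm1 was lost without Chow replicates 1 and 3 and TM5614 replicates 1, 3, 4 and 5 (adjusted p from 0.0533 to 0.0969). Sqstm1 and Maff passed in 5 alternatives each, Flvcr1 and Blvra in 1 each. Low counts limit G6pdx, Hmox1 and Nqo1 most.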
